A study of Mus musculus with 8 samples.

Results

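The 95 genes described here encode subunits and assembly factors of the mitochondrial respiratory chain, complexes I to V, in mouse striatum. They were chosen by symbol, with earlier results of these data known. Taken was every gene whose platform symbol began with Nduf, Sdha, Sdhb, Sdhc, Sdhd, Uqcr, Cyc1, Cox4 to Cox8 or Atp5. Only genes with a probe set assigned to that gene alone were kept. They make up 95 of the 18193 genes measured, with 44 in complex I, 8 in complex II, 9 in complex III, 17 in complex IV and 17 in complex V. By role, 19 are core subunits, 54 accessory subunits, 7 tissue-limited isoforms, 12 assembly factors and 3 other genes. The samples were striata of 4 CHL2 mutant mice and 4 wild-type mice, all aged 22 months, of a C57BL/6 X CBA F1 hybrid background, with 1 Affymetrix expression array per mouse. CHL2 is a model of Huntington's disease: a run of 150 CAG repeats, taken from human HD exon 1, was placed in the animal's own gene, here on both copies (Q150/Q150). The mutants were mice 141, 153 and 154, which were female, and mouse 191, a male. The wild-type mice were 161, a female, and 170, 180 and 200, which were male. The comparison asks how transcripts of the respiratory chain differ in the striatum of old mutants.

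The respiratory chain sits in the inner mitochondrial membrane. Complex I takes electrons from NADH and complex II from succinate, ubiquinone carries them to complex III, cytochrome c carries them to complex IV, and oxygen accepts them there. Complexes I, III and IV pump protons, and complex V, the ATP synthase, lets them flow back to make ATP. Core is used here for the conserved subunits of complex I, the subunits of complex II, the cytochrome c1, Rieske and core proteins of complex III and the F1 subunits of complex V, while accessory subunits are the other parts of a complex, and assembly factors help to build a complex without staying in it. Further subunits of complexes I, III, IV and V are encoded by mitochondrial DNA and are not among these genes. The striatum is known for its sensitivity to loss of this pathway: in rodents the toxin 3-nitropropionic acid, which blocks complex II, damages it.

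The striatal label was checked against markers of medium spiny neurons, the main neurons of the striatum. Ppp1r1b (DARPP-32) had values of 11.22, 10.96, 10.94 and 11.13 in mutants and 12.05, 11.99, 12.21 and 12.22 in wild-type mice, on the log2 scale of the deposited table, so the markers were present in both groups. All 7 measured markers of these neurons fell in mutants, with a median log2 change of -1.42. Their mean deviation from the 8-mouse mean was -0.81 to -0.62 in mutants and 0.66 to 0.77 in wild-type mice. In bulk tissue, fewer cells of a type and less RNA per cell cannot be told apart. Of 5 astrocyte genes, 1 passed, Gfap, which rose by 0.48 (adjusted p = 0.0341, limma), while Aqp4 had 0.22 and Slc1a2, Aldh1l1 and Slc1a3 had -0.22, -0.16 and -0.08. The median of that list was -0.08, and its mean deviation was -0.001 to 0.078 in mutants and -0.16 to 0.067 in wild-type mice. Of 4 oligodendrocyte genes, 1 passed, Mobp, which fell by 0.38 (adjusted p = 0.0225, limma), while Mag had 0.31, Mog 0.09 and Mbp -0.13. The list's deviation was -0.09 to 0.08 in mutants and -0.10 to 0.14 in wild-type mice. None of 6 pan-neuronal, 5 microglial and 4 endothelial and mural genes passed in limma, with 1, 1 and 2 at an unadjusted p under 0.05. The endothelial and mural list had a deviation of -0.20 to -0.04 in mutants and 0.02 to 0.16 in wild-type mice, which did not overlap. Of 3 cortical neuron genes 0 passed in limma and 1, Slc17a7, had an unadjusted p under 0.05, with a change of -1.45 and adjusted p of 0.0574. The cortical list's deviation was -0.87 to 0.71 in mutants, lowest in mouse 191, and -0.35 to 0.62 in wild-type mice. Of 3 choroid plexus genes 0 passed in limma, with 0 at an unadjusted p under 0.05, and the deviation was -1.19 to 1.81 in mutants, highest in mouse 141, and -0.90 to 1.15 in wild-type mice. The part of these cell type differences in the results below was not tested. The Gapdh control probe sets give a 3' signal minus a 5' signal that grows as RNA degrades, and it was 0.32 to 0.43 in mutants and 0.32 to 1.37 in wild-type mice, where mouse 170 alone was above 0.34. For beta-actin it was 1.23 to 1.51 in mutants and 1.36 to 2.65 in wild-type mice, again highest in mouse 170. Without that mouse the number of respiratory chain genes past the test was again 3, with Ndufaf6, a complex I assembly factor, in place of Cox7a1.

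Transcripts of the respiratory chain differed little between the genotypes, and what difference there was lay mostly above 0. At an adjusted p under 0.05 in limma, with sex as a term, 3 of the 95 genes rose in mutants and 0 fell. The 3 were Atp5g1, which encodes subunit c of ATP synthase, Cyc1, which encodes cytochrome c1 of complex III, and Cox7a1, the heart and muscle isoform of a complex IV subunit. They are 3.16% of the members, against 12.4% of all genes tested that passed in either direction, 6.4% that rose and 6.01% that fell. At an unadjusted p under 0.05 the members numbered 16, all higher in mutants, which is 16.8% of them. In either direction the share was 25.9% of all genes, with 2548 of the 18193 higher in mutants and 2155 lower. The median log2 change (mutant minus wild type at equal sex) was 0.097 over the members and 0.005 over all genes. Without the sex term these were 0.058 and 0.014, and without sex and mouse 191 they were 0.044 and 0.025. It lay above 0 in 73 of the 95 members, 76.8%, against 51.2% of all genes.

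The changes were small in size. At the 1 probe set read for each gene they ran from -0.21 to 0.43. There, 0 of 95 members exceeded 0.5 in either direction, against 6.50% of all genes. In 15 members all 4 mutants lay above all 4 wild-type mice, which is 15.8% of them against 11.4% of all genes, and in 0 members did they lie below, against 9.27%. Most members are brightly read genes: 88 of them had a mean at or above that of the median gene. Among all genes at that level the median log2 change was 0.049 and 58.1% lay above 0, against 0.098 and 79.5% for the 88 members. At that level 2 of the 88 members passed the test, 2.27%, against 19.8% of the genes. Mutants lay wholly above wild-type mice in 15 of these 88 members, 17.0%, against 18.9% of the genes at that level. They lay wholly below in 0 of the 88, against 1289 of 9097 genes.

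**Figure D1:**
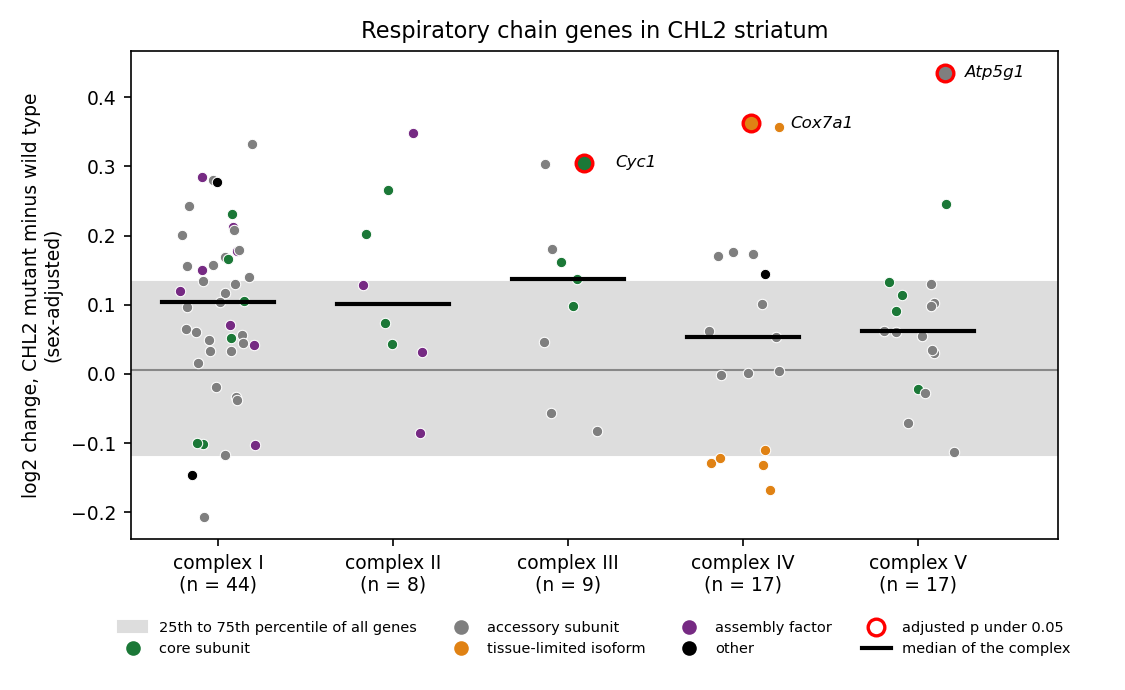
Log2 change of each of the 95 respiratory chain genes (CHL2 mutant minus wild type at equal sex, vertical axis) by complex, 1 point per gene coloured by role. Black lines are the medians of the complexes, from 0.053 in complex IV to 0.137 in complex III, the grey band spans the lower to the upper quartile of all 18193 genes, the grey line is their median, and red rings mark the 3 genes with an adjusted p under 0.05.

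The 5 complexes had medians of 0.105 for complex I, 0.101 for complex II, 0.137 for complex III, 0.053 for complex IV and 0.062 for complex V. Single mice moved them: complex II had 0.044 without mouse 191, and complex IV -0.0018 without mouse 153. Without sex and mouse 191 complexes I, II and III had 0.048, 0.041 and 0.052, and without sex and mouse 161 complexes I, II and V had 0.060, 0.050 and 0.014. Members above 0 numbered 35 of 44 in complex I, 7 of 8 in complex II, 7 of 9 in complex III, 11 of 17 in complex IV and 13 of 17 in complex V. Separated groups with mutants above were most frequent in complex III, at 4 of 9, and were seen in 0 of 17 members of complex IV. Their share was 11.4% of all genes and 18.9% of genes at or above the median level. By role, the median was 0.114 for core subunits, 0.062 for accessory subunits, 0.124 for assembly factors and -0.12 for tissue-limited isoforms. For the 7 isoforms the median difference of group means, without the sex term, was -0.025. Of these, 3 were read below 5, near background, on all 8 arrays. The isoforms' mean deviation overlapped, with -0.09 to 0.16 in mutants and -0.09 to 0.03 in wild-type mice. All of these values are descriptions, and the complexes were not tested against each other.

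In single mice, the mean deviation of all 95 members from their 8-mouse means was 0.012, 0.014, 0.031 and 0.078 in mutants 141, 153, 154 and 191, against -0.052, -0.024, -0.068 and 0.009 in wild-type mice 161, 170, 180 and 200. The groups did not overlap, but mutant 141 and wild-type mouse 200 lay closer to each other than the spread within either group (SD 0.031 in mutants and 0.034 in wild-type mice, n = 4 each). In complex II the groups also did not overlap, with -0.002 to 0.113 in mutants and -0.096 to -0.009 in wild-type mice. In complexes I, III, IV and V the groups overlapped. Mutant 191 had the highest mean deviation of the 8 mice in complexes I, II, III and V, and wild-type mouse 200 the highest of the wild-type mice in all 5.

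**Figure D2:**
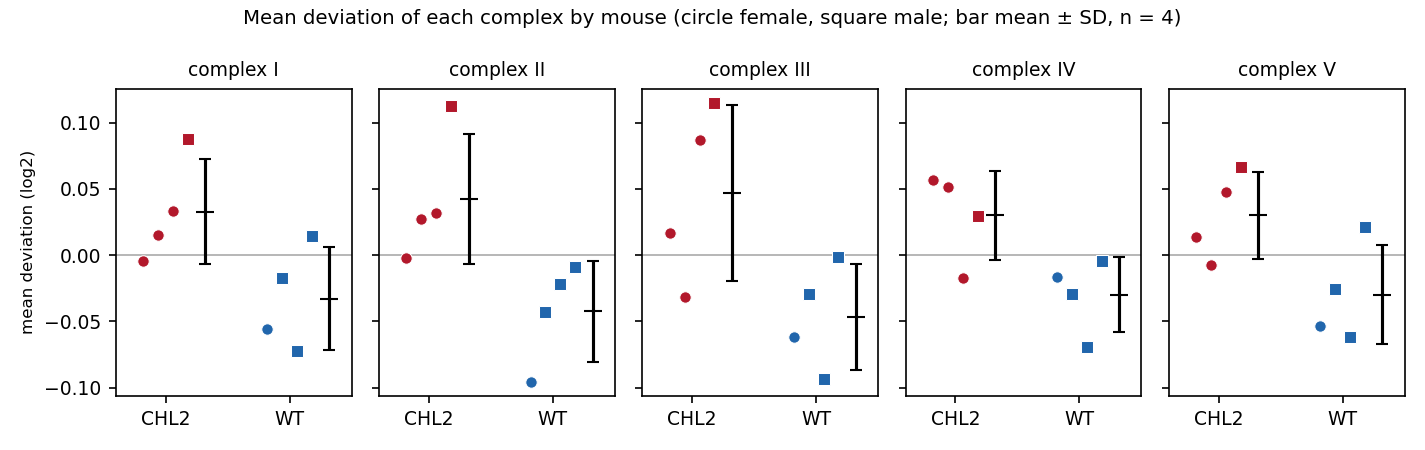
Mean deviation of the members of each complex from their 8-mouse means (log2, vertical axis) in each CHL2 mutant (left, red) and wild-type mouse (right, blue), with circles for females, squares for males and bars for mean ± SD of 4 mice. Mutant 191 is the highest point in complexes I, II, III and V, and the groups overlap in all complexes but II.

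In complex V, Atp5g1 was the one member that passed the test. Subunit c, counted here with the accessory subunits, forms the membrane ring that turns as protons pass, and 3 genes, Atp5g1, Atp5g2 and Atp5g3, encode the same mature protein with different import sequences. Atp5g1 had log2 values of 10.66, 10.44, 10.67 and 10.76 in mutants 141, 153, 154 and 191, against 10.27, 10.15, 10.16 and 10.31 in wild-type mice 161, 170, 180 and 200. All 4 mutants lay above all 4 wild-type mice. The means were 10.63 ± 0.13 and 10.22 ± 0.08 in mutant and wild-type mice (SD, n = 4 each), and the sex-adjusted log2 change was 0.43 ± 0.10 (SE), a 1.35-fold rise (adjusted p = 0.0163, limma). It did not pass without mouse 191 (0.32, adjusted p = 0.257) or without mouse 161 (0.55, adjusted p = 0.0522), each the only mouse of its sex in its group. Without them 3.86% and 4.75% of all genes passed. A second Atp5g1 probe set was below 5 on all 8 arrays, a level taken here as near background, with a change of -0.04.

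The other genes for subunit c did not pass. Atp5g2 had 10.16, 10.34, 10.11 and 10.03 in mutants and 10.29, 9.97, 10.22 and 10.33 in wild-type mice, with a log2 change of -0.11 (adjusted p = 0.583, limma). Atp5g3 had 12.52, 12.49, 12.39 and 12.33 in mutants and 12.41, 12.36, 12.33 and 12.31 in wild-type mice, with a change of 0.03 (adjusted p = 0.863, limma). For both, the groups overlapped. The within-array difference between Atp5g1 and Atp5g2, which sets the change of one gene against that of the other, averaged 0.48 ± 0.26 in mutants and 0.02 ± 0.11 in wild-type mice (SD, n = 4 each). That difference between groups of 0.45 had p = 0.0571 in a two-sided exact permutation test, and 0.143 after Benjamini-Hochberg adjustment over 10 pairs. For Atp5g1 against Atp5g3 it was 0.33, with the same exact p and adjusted p. The pairs were chosen after the data were seen, and none passed after adjustment.

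**Figure D3:**
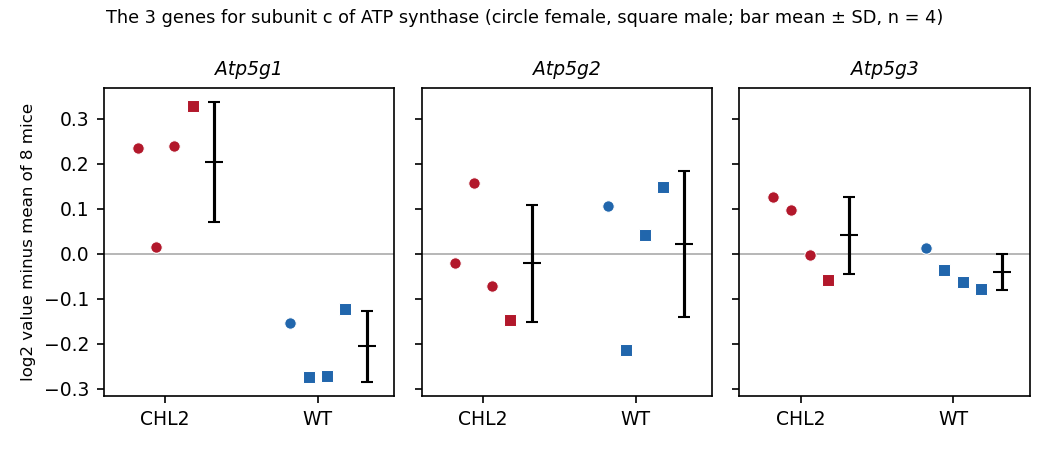
Log2 value minus the gene's mean over the 8 mice (vertical axis) of the 3 genes for subunit c of ATP synthase in CHL2 mutants (left, red) and wild-type mice (right, blue), with circles for females, squares for males and bars for mean ± SD of 4 mice. Atp5g1 is higher in all 4 mutants than in any wild-type mouse, while the groups overlap for Atp5g2 and Atp5g3.

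Because the 3 genes encode one mature protein, their promoters are shown side by side, as 300 bases each, from 250 before the start to 50 after it, on the strand of the gene. The sequences are RefSeq's, build GRCm38.p6, at chr11:96075582-96075881 for Atp5g1, chr15:102670998-102671297 for Atp5g2 and chr2:73911277-73911576 for Atp5g3, all on the minus strand. Capitals mark matches to the core of the NRF1 site, GCGCATGC, or the ERR site, TCAAGGTCA, read on either strand. NRF1 and ERR are factors known to bind promoters of respiratory chain genes.
Atp5g1: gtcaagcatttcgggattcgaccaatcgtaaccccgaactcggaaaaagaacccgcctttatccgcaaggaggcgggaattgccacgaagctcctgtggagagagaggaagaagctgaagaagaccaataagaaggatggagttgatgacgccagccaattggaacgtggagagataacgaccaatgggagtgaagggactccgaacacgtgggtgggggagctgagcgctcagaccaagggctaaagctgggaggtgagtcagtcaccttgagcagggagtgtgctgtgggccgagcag
Atp5g2: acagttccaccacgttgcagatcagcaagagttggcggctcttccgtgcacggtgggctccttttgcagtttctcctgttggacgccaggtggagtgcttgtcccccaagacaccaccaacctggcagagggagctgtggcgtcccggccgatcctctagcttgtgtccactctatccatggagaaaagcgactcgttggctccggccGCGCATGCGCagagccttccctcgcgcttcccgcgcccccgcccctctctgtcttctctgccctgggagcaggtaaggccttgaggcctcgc
Atp5g3: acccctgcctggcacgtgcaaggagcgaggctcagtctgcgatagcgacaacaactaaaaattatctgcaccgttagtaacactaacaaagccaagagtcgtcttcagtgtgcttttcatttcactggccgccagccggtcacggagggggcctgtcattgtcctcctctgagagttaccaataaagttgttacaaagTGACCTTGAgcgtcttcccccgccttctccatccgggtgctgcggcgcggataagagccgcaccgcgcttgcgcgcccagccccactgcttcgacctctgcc
The Atp5g2 window held overlapping NRF1 matches on both strands and the Atp5g3 window an ERR match on the opposite strand. The letters searched, which also included the GABP site CCGGAAGT and the YY1 site AAGATGGCG, were not in the Atp5g1 window. Of the 95 members, 78 had a window in the table. NRF1 letters stood in a window of 11 of these, 14.1%, against 3.05% of all 27018 genes with a window, and YY1 letters in 7, 8.97%, against 1.64%. GABP letters stood in 5, 6.41% against 4.31%, and ERR letters in 2, 2.56% against 0.466%. A match of letters is a description and does not show binding.

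The other members of complex V did not pass. Atp5b, the catalytic beta subunit of the F1 head, had 12.56, 12.50, 12.66 and 12.74 in mutants and 12.40, 12.28, 12.48 and 12.51 in wild-type mice, with a log2 change of 0.25 (adjusted p = 0.122, limma). One wild-type value, that of mouse 200, lay above one mutant value, that of mouse 153. Atp5a1, the alpha subunit, had a change of 0.09 (adjusted p = 0.510, limma), with 0.13 and -0.58 at its other probe sets. Atp5c1, the gamma subunit of the rotating stalk, had 0.13 (adjusted p = 0.420, limma), and Atp5o, which joins head and stator, 0.13 (adjusted p = 0.387, limma). The remaining 10 ran from -0.07 to 0.11.

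In complex III, Cyc1 rose. Cytochrome c1 holds the haem that passes electrons to cytochrome c. Cyc1 had log2 values of 10.94, 10.83, 10.89 and 11.08 in mutants 141, 153, 154 and 191, against 10.60, 10.68, 10.77 and 10.82 in wild-type mice 161, 170, 180 and 200. The groups did not overlap, although mutant 153 and wild-type mouse 200 were within 0.01 of each other. The means were 10.93 ± 0.11 and 10.72 ± 0.10 in mutant and wild-type mice (SD, n = 4 each), and the log2 change was 0.31 ± 0.08 (SE), a 1.24-fold rise (adjusted p = 0.0316, limma). The call did not hold when sex was left out of the fit (0.22, adjusted p = 0.106) or without any one of mice 141, 154, 191, 161 and 180, where adjusted p reached 0.240.

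The other core subunits of complex III also lay above 0. Uqcrfs1, the Rieske iron-sulfur protein, had a log2 change of 0.14 (adjusted p = 0.305, limma), Uqcrc1, a core protein of the matrix side, 0.10 (adjusted p = 0.491, limma), and Uqcrc2, its partner, 0.16 (adjusted p = 0.220, limma). For Uqcrfs1 and Uqcrc1 the groups did not overlap but came close. The lowest mutant and highest wild-type values were 10.375 and 10.358 for Uqcrfs1, and 10.602 and 10.597 for Uqcrc1. Uqcrh, the hinge protein that helps cytochrome c1 meet cytochrome c, had 11.44, 11.48, 11.78 and 11.69 in mutants and 11.37, 11.25, 11.21 and 11.39 in wild-type mice. All mutants were above all wild-type mice, and the change was 0.30 (adjusted p = 0.107, limma), with 0.23 at its other probe set. The accessory genes Uqcrb and Uqcr11 lay below 0, at -0.06 and -0.08.

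In complex II, 0 of 8 members passed, but Sdha and Sdhaf1 had separated groups. Sdha is the flavoprotein that oxidises succinate, and it also serves the citric acid cycle. It had 11.30, 11.40, 11.28 and 11.18 in mutants 141, 153, 154 and 191, against 11.00, 11.04, 10.97 and 10.92 in wild-type mice 161, 170, 180 and 200. The log2 change was 0.27 ± 0.08 (SE, adjusted p = 0.0610, limma), and a second bright Sdha probe set had 0.28. Sdha passed in 7 of 20 alternative analyses, among them the fit without sex (0.31, adjusted p = 0.0151).

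Sdhaf1, which helps to insert the iron-sulfur clusters of complex II, had 7.94, 8.10, 7.76 and 7.75 in mutants and 7.40, 7.61, 7.53 and 7.60 in wild-type mice, with a change of 0.35 (adjusted p = 0.0692, limma). Sdhd, a membrane anchor, had a change of 0.20 (adjusted p = 0.146, limma). Sdhb, the iron-sulfur subunit, had 0.07 (adjusted p = 0.675, limma) and Sdhc, the other anchor, 0.04 (adjusted p = 0.803, limma). The range of the 8 members was -0.09 for the assembly factor Sdhaf4 to 0.35 for Sdhaf1.

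In complex I, 0 of 44 members passed in either direction, and 7 had an unadjusted p under 0.05, all higher in mutants. The 7 are 15.9%, against 25.9% of all genes and 37.8% of genes at or above the median level, both in either direction. Those higher in mutants were 2548 of all 18193 genes and 1989 of the 9097 at that level. Ndufv2, an iron-sulfur subunit of the NADH-oxidising arm, came nearest, with 11.17, 11.17, 11.22 and 11.23 in mutants and 10.92, 10.94, 11.06 and 11.11 in wild-type mice. All mutants were above all wild-type mice, and the log2 change was 0.23 (adjusted p = 0.0962, limma), with 0.19 and 0.14 at its other probe sets. Its neighbour in the same arm Ndufv1, which binds NADH, had a change of 0.05 (adjusted p = 0.752, limma).

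Ndufs1, the large iron-sulfur subunit, had 10.29, 10.35, 10.21 and 10.27 in mutants and 10.08, 10.13, 10.11 and 10.16 in wild-type mice, a change of 0.17 with separated groups (adjusted p = 0.218, limma). The core subunits Ndufs3 and Ndufs7 had changes of -0.10 each. Ndufs4, an accessory subunit whose loss in mice causes a Leigh-like brain disease, had -0.04 (adjusted p = 0.854, limma). Ndufb10, an accessory subunit of the membrane arm, had the lowest change of the 95 members, -0.21 (adjusted p = 0.205, limma), with 10.83, 10.94, 10.63 and 10.65 in mutants and 10.94, 10.99, 10.88 and 10.90 in wild-type mice. Of the 8 assembly factors of complex I, 7 lay above 0, with 0.28 for Ndufaf6 and -0.10 for Ndufaf8 at the ends. Ndufb4 was read by a probe set below 5 on all 8 arrays, so its value says little of the transcript.

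In complex IV, Cox7a1 was the one member that passed, and its signal was near background. Its values were 4.17, 3.94, 4.23 and 4.55 in mutants 141, 153, 154 and 191, against 3.83, 4.09, 4.11 and 4.13 in wild-type mice 161, 170, 180 and 200. The groups overlapped and all 8 values were below 5. The means were 4.22 ± 0.25 and 4.04 ± 0.14 in mutant and wild-type mice (SD, n = 4 each), and the sex-adjusted log2 change was 0.36 ± 0.10 (SE, adjusted p = 0.0333, limma). With values floored at 5 the change was 0, and when sex was left out of the fit it was 0.18 (adjusted p = 0.386, limma). The call held without mouse 153 but was lost without any other single mouse, with an adjusted p of up to 0.324 in limma.

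**Figure D4:**
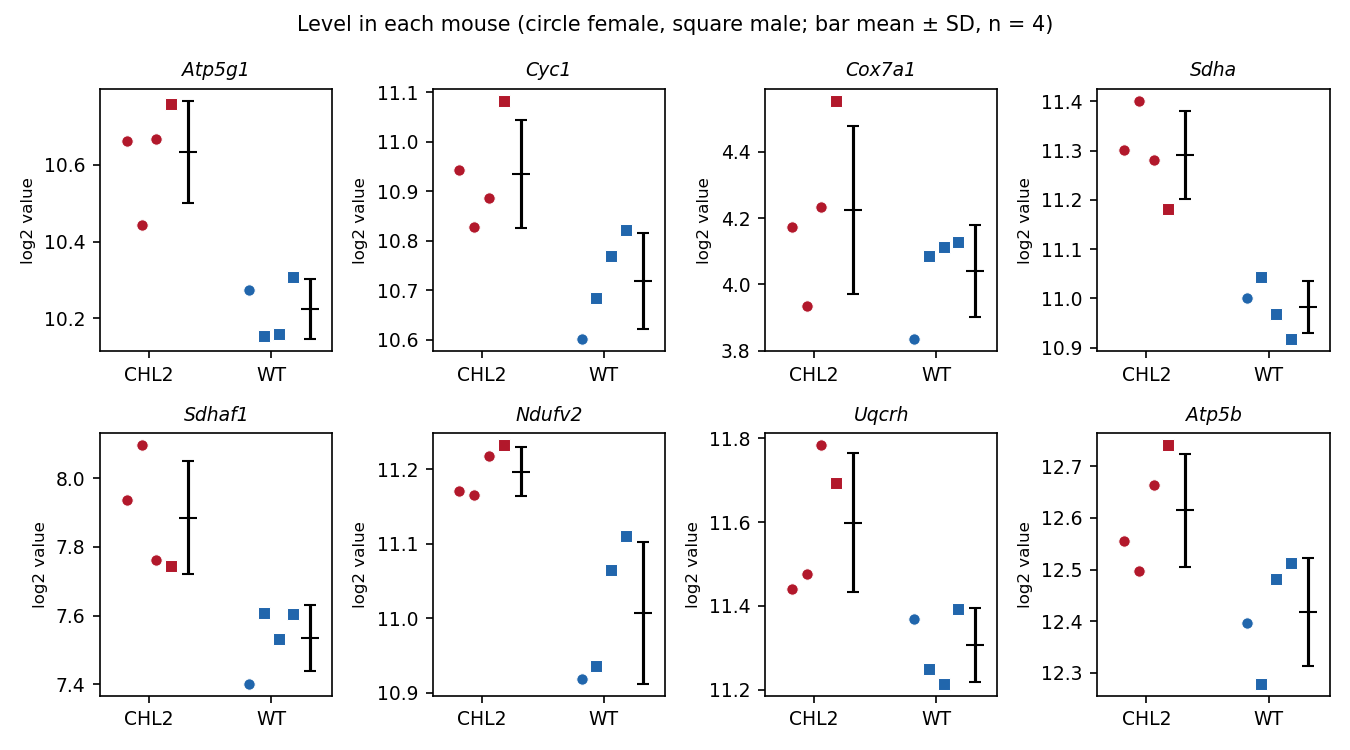
Log2 value of 8 respiratory chain genes in each CHL2 mutant (left, red) and wild-type mouse (right, blue), with circles for females, squares for males and bars for mean ± SD of 4 mice. Vertical axes differ between panels and do not start at 0. The groups do not overlap for Atp5g1, Cyc1, Sdha, Sdhaf1, Ndufv2 and Uqcrh, and overlap for Cox7a1 and Atp5b.

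The common subunits of complex IV differed little. The log2 change was 0.10 for Cox4i1 (adjusted p = 0.475, limma), which takes part in control by ATP, 0.18 for Cox8a (adjusted p = 0.333, limma) and below 0.01 in size for Cox5a, Cox6a1 and Cox7a2, whose adjusted p values were 0.995, 0.993 and 0.985 in limma. Cox7a2l, a factor for supercomplexes of complexes III and IV, had 0.14 (adjusted p = 0.360, limma). Ndufa4, named as a complex I gene but found as a subunit of complex IV, had 0.28 with overlapping groups (adjusted p = 0.352, limma). By its symbol it was counted among the 44 members of complex I, not among the 17 of complex IV.

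Of the 7 tissue-limited isoforms of complex IV, 5 lay below 0 at equal sex, while 3 lay above 0 without the sex term. Cox6a2, of heart and muscle, had 7.16, 7.21, 7.23 and 7.01 in mutants and 7.22, 7.34, 7.20 and 7.45 in wild-type mice, a change of -0.17 (adjusted p = 0.326, limma). The highest Cox6a2 value was that of wild-type mouse 200, in which the muscle marker Myh4 was 7.12, against 3.05 to 4.35 in mutants and 3.36 to 3.40 in the other wild-type mice. The summed muscle markers, as a mean deviation, were -0.61 to -0.06 in mutants and -0.15 to 1.44 in wild-type mice. Of the 4 markers, Actn2, which neurons also express, fell, and Myh4, Ckm and Acta1 did not pass. Their part in the isoform values was not tested. The Cox6a2 change ran from -0.32 to -0.02 when each mouse was left out in turn.

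Cox6b2, an isoform of the testis, had 6.68, 6.52, 6.66 and 6.29 in mutants and 6.38, 5.53, 5.91 and 6.03 in wild-type mice. The 4 females held the 4 highest values, and the sex-adjusted change was 0.36 (adjusted p = 0.104, limma). Cox6b2 was among the genes that passed when sex was left out of the fit. Cox4i2, an isoform of lung, had a change of -0.13 with all 8 values below 5 (adjusted p = 0.634, limma). The within-array difference between Cox6a1 and Cox6a2 was 6.09 ± 0.06 in mutants and 5.94 ± 0.14 in wild-type mice (SD, n = 4 each), with an exact permutation p of 0.0286, the smallest the design allows, and 0.143 after adjustment over the 10 pairs. The level of such a difference joins different probe sets and has no meaning of its own.

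Of the 95 members, 0 passed for sex in limma, against 0.0275% of all genes, and the lowest adjusted p was 0.320. At an unadjusted p under 0.05 there were 6 members, 6.32%, against 10.6% of all genes. Those with the lowest p were Cox7a1, lower in females by 0.36 on the log2 scale, and Cox6b2, higher in females by 0.44. For the interaction of genotype and sex, 0 members passed, against 0.0055% of all genes, and 1 had an unadjusted p under 0.05, against 5.04% of all genes. That member was Sdhaf3, an assembly factor of complex II, with 6.70, 6.60, 6.89 and 7.38 in mutants 141, 153, 154 and 191, and 6.88, 6.95, 6.97 and 6.99 in wild-type mice 161, 170, 180 and 200. The male mutant 191 was the highest of the 8 mice. The interaction rests on 1 male mutant and 1 female wild-type mouse.

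Other probe sets of the same genes gave a mixed check. The 95 members had 186 single-gene probe sets, and 53 members had more than 1. Of the 91 that did not represent their gene, 63 had the same sign of change as the one that did and 19 were below 5 on all arrays. Their median log2 change was 0.050. The largest changes among them were falls, of -0.58 at an Atp5a1 probe set (mean 7.29) and -0.51 at a Uqcr10 probe set (mean 6.63). Neither passed (adjusted p = 0.326 and 0.316, limma). When every probe set was tested on its own, 1 of the 186 rose and 0 fell in limma, against 6.7% of all probe sets called in either direction. The one was the bright Atp5g1 probe set (adjusted p = 0.0334, limma).

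Genes that work with the respiratory chain were read from lists chosen with earlier results of these data known. Among 31 assembly factors outside the symbols above, 2 rose and 2 fell, 12.9% against 12.4% of all genes, with a median log2 change of 0.041. Cox16, an assembly factor of complex IV, had 7.38, 7.21, 7.47 and 7.76 in mutants and 6.90, 6.95, 7.05 and 7.12 in wild-type mice, and rose by 0.59 (adjusted p = 0.00410, limma). Surf1, also needed to assemble complex IV and mutated in human Leigh syndrome, rose by 0.31 (adjusted p = 0.0450, limma). Coa7, another complex IV factor, had 6.08, 6.00, 6.06 and 5.96 in mutants and 6.46, 6.20, 6.39 and 6.35 in wild-type mice, and fell by 0.39 (adjusted p = 0.0127, limma). Ttc19, which serves complex III, fell by 0.33 (adjusted p = 0.0459, limma). Cox16 lost its call without mouse 191 and on the mean of all its probe sets (0.29, adjusted p = 0.0530, limma), and Coa7 without mouse 191 or 161. Surf1 kept its call in 1 of 8 and Ttc19 in 0 of 8 analyses that left out a mouse.

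Among 18 genes of the citric acid cycle and the pyruvate dehydrogenase complex, 3 rose and 0 fell, with a median of 0.118 and 15 of 18 above 0. The 3 are 16.7% of the list, against 12.4% of all genes and 19.8% of genes at or above the median level, both in either direction. They are all subunits of pyruvate dehydrogenase, which feeds the cycle with acetyl-CoA. Pdha1, its E1 alpha subunit, had 10.57, 10.70, 10.66 and 10.70 in mutants and 10.31, 10.41, 10.38 and 10.37 in wild-type mice, and rose by 0.33 (adjusted p = 0.0203, limma). Dld, the dihydrolipoamide dehydrogenase, had 8.30, 8.23, 8.26 and 8.68 in mutants and 8.03, 8.03, 8.14 and 8.13 in wild-type mice, and rose by 0.41 (adjusted p = 0.0174, limma). Pdhx, the E3 binding protein, rose by 0.30 (adjusted p = 0.0441, limma). In all 3 genes the groups did not overlap. Dld lost its call without mouse 191, when sex was left out of the fit (0.28, adjusted p = 0.0886, limma), without sex and mouse 191 (0.18), without sex and mouse 161 (0.27), with its probe sets averaged (0.20) and without moderation. Pdha1 lost its call without mouse 191 or 161 and when its probe sets were averaged (0.42, adjusted p = 0.165, limma), and Pdhx in each of the 8 analyses that left out a mouse.

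Of 19 genes for ubiquinone synthesis, cytochrome c and carriers of the mitochondrial membranes, 1 rose and 1 fell, 10.5% against 12.4% of all genes, with a median of 0.010. Vdac3, a pore of the outer membrane, had 11.01, 11.02, 11.05 and 11.08 in mutants and 10.68, 10.78, 10.78 and 10.73 in wild-type mice, and rose by 0.33 (adjusted p = 0.0165, limma). Ckmt1, the mitochondrial creatine kinase that passes energy from new ATP to creatine, had 9.04, 8.93, 9.19 and 9.13 in mutants and 9.53, 9.59, 9.46 and 9.69 in wild-type mice, and fell by 0.46 (adjusted p = 0.0110, limma). Both lost the call without mouse 191 or 161, and Ckmt1 without moderation. Among 13 glycolysis genes 0 passed in limma, and the median was 0.079, with 9 above 0. At an unadjusted p under 0.05 there were 2, both higher, 15.4% against 25.9% of all genes in either direction. Mutants lay wholly above wild-type mice in 6 of the 13, 46.2% against 11.4% of all genes, and wholly below in 1. The list's mean deviation was 0.010 to 0.084 in mutants and -0.103 to -0.016 in wild-type mice, which did not overlap.

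The low share of members past the test did not rest on one analysis choice. In the main fit and in each of 20 alternatives, the share of the members that passed was below that of all genes, and it ran from 0% to 9.47%. The highest count was 9 of 95, with a trended and robust prior, which added Sdha, Sdhaf1, Ndufv2, Uqcrh, Atp5b and Ndufa6 to the 3 of the main fit.

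**Figure D5:**
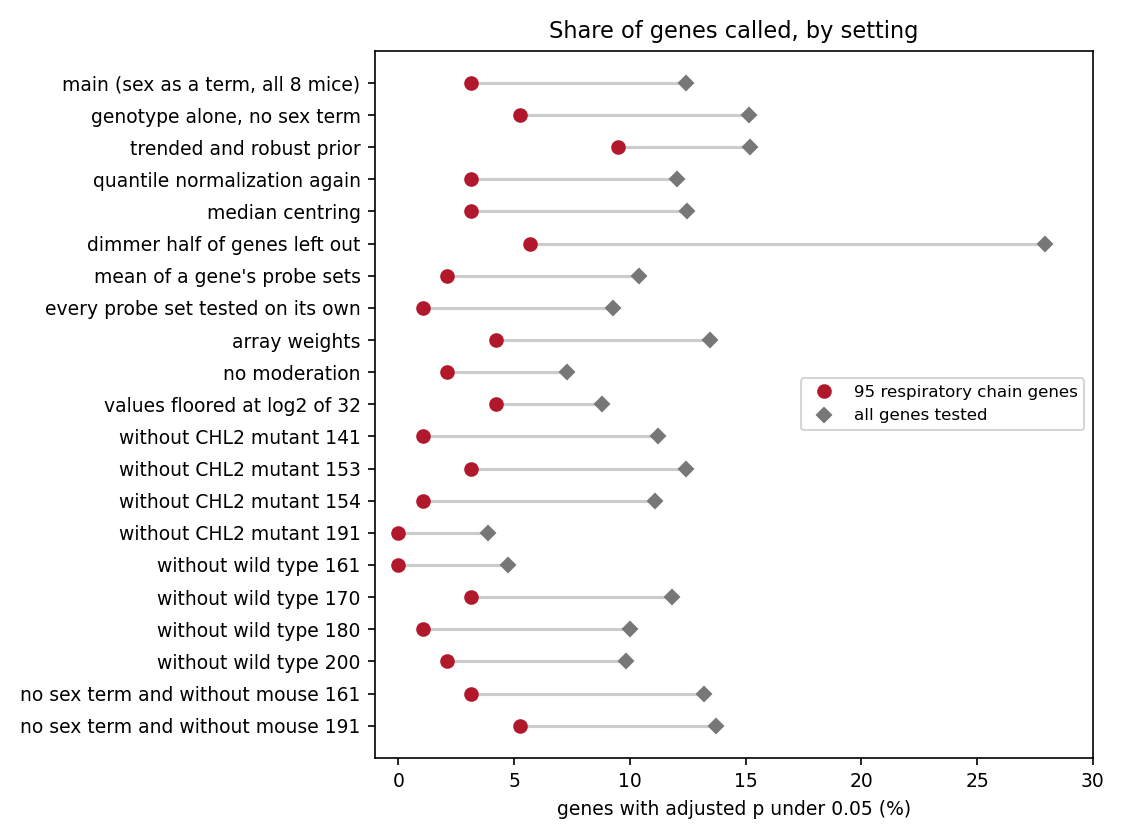
Share of genes with an adjusted p under 0.05 (horizontal axis, percent) among the respiratory chain genes (red circles) and all genes tested (grey diamonds), in the main fit and 20 alternatives (rows). The members lie between 0% and 9.47% and below all genes in every row, and the share of all genes is lowest without mouse 191. The row without the dimmer genes holds 88 members.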

How the data were processed

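RNA of 8 striata, prepared with TRIzol and an RNeasy cleanup per the labels' protocols, was biotin-labelled and read on 1 array per mouse. The deposited log2 values, 1 per probe set and array, were made by the authors with RMA and the affy package, per the submitters' processing notes, of unstated versions. RMA removes background, gives all arrays one distribution and summarises probes, so a shift shared by most genes cannot be seen and changes of dim genes are compressed. Array medians lay between 4.95 and 4.98, and the number of arrays limits the precision.

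Of 45101 probe sets, 64 controls were left out, 34945 had 1 symbol in the platform annotation, 932 had several and 9160 were unlisted. Each of 18193 genes was read at the brightest of its single-symbol probe sets, by mean. All 95 members were found in the reference gene table with 0 symbols changed, and 10 probe sets shared with other symbols were not used. Ndufs6, Ndufa11 and Cox7b were not analysed here. Genotype and sex were fitted with limma 3.58.1 (lmFit, eBayes) in R 4.3.3, with Benjamini-Hochberg adjustment over all genes, and a log2 change is mutant minus wild type at equal sex. RNA quality and isoform pairs were tested by two-sided exact permutation over 70 assignments, without sex. The limma p-values set a change against the spread between these mice, which is partly pooled over all genes. The exact p-values set a difference between groups against those of all 70 assignments. In simulated data over 18193 genes, 43% of genes changed by 0.5 on the log2 scale and 94% of those changed by 1 were recovered, of 100 each. In the measured data 12.4% of genes passed in either direction, a larger share than was changed in the simulation. Because the adjustment runs over all genes, the simulated rates need not hold for the measured data. The recovery rate in the measured data was not tested.

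The members and lists were chosen with earlier results of these data known. The genes named are the members past the test, the catalytic and best known subunits, and of each related list up to 4 genes past the test. Sdhaf1, Sdhaf3, Sdhaf4, Ndufv2, Ndufb4, Ndufb10, Ndufs3, Ndufs7, Ndufa6, Ndufaf6, Ndufaf8, Uqcrh, Uqcrb, Uqcr11, Uqcrc2 and Cox6b2 were named after their values were seen, as were the isoform pairs. Alternatives changed the sex term, the prior (trended and robust, or none), the normalization (quantiles or medians again), the probe sets used (their mean, each alone, or bright genes only), the weights of arrays, a floor of 32 (5 in log2), the mice (each left out) and the threshold.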

Additional observations from a re-analysis of the deposited data

Results flagged for a closer look

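In 102 groups of 4 mice looked at, 4 values stood apart from the other 3 of their group, and chance gives about 1 in 20. Wild-type mouse 170 had 8.80 for Ndufs4, where the rest of its group had 9.03 to 9.07. Wild-type mouse 161 had 3.83 for Cox7a1, against 4.09 to 4.13 in the others, and it was the only female of that group. The 3' minus 5' control difference of wild-type mouse 170 was 1.37 for Gapdh, against 0.32 to 0.34 in the others, and 2.65 for beta-actin, against 1.36 to 1.43. Without mouse 170, Atp5g1 and Cyc1 passed the test and Cox7a1 did not.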

How the results depend on the processing

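Over 20 alternative analyses, 0 members fell in any, and the number that rose, 3 in the main fit, was 5 without sex as a term, 9 with a trended and robust prior, 5 without the dimmer genes, 1 with every probe set tested and 5 without sex and mouse 191. It was 0 at an adjusted p under 0.01, 6 under 0.10, and 0 to 3 when each mouse was left out. The median change of all members, 0.097 in the main fit, was 0.058 without sex, 0.054 without sex and mouse 161, and 0.044 without sex and mouse 191. Without sex and mouse 161 it was 0.060 for complex I, 0.050 for complex II and 0.014 for complex V. Without sex and mouse 191 it was 0.048 for complex I, 0.041 for complex II and 0.052 for complex III. With each mouse left out in turn it was 0.044 to 0.133 for complex II, lowest without mouse 191. For complex IV it was -0.0018 to 0.075, turning below 0 without mouse 153, and with a floor at 5 it was 0.0035. The cause of these shifts was not tested. The 3 genes that rose lost their call in 27 of 59 analyses and none changed sign. Averaging both Atp5g1 probe sets also ended its call (0.20, adjusted p = 0.179, limma), as did fits without moderation or with the floor. Of 40 other named members, 11 changed sign in some alternative, the largest of them by main change at 0.13. Of 180 analyses of 9 named related genes, 51 lost the call. Genes near background have only compressed changes, and with 4 mice a group and sex uneven between groups, small changes may go uncalled. No paired analysis was possible because the mouse numbers are not shared between the groups.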
